A study of Mus musculus with 8 samples.

Results

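The Klr genes encode killer-cell lectin-like receptors, and most of them sit together in the natural killer (NK) gene complex of mouse chromosome 6. They were chosen here by symbol: every protein-coding gene whose symbol starts with Klr in the RefSeq gene table of GRCm38.p6, the same chromosome sequences as mm10. There were 29 such genes, of which 27 had a position on the main sequence of chromosome 6 and were analysed, out of 21589 coding genes of the autosomes and X. The other 2, Klra16 and Klra23, are listed on alternate sequences and were not analysed here. The complex itself held 25 of the 27, from Klrb1a to Klra2 (chr6:128609227-131247716, 2.64 Mb), together with 23 coding genes of other names. Klrg2 (chr6:38616329-38638815) and Klrg1 (chr6:122270596-122282833) lie elsewhere on the chromosome.

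Killer-cell lectin-like receptors are surface proteins best known from NK cells, where inhibiting and activating members read MHC class I molecules, their relatives and other ligands on neighbouring cells. The Ly49 receptors (Klra genes) bind classical MHC class I, CD94 (Klrd1) pairs with NKG2 chains (Klrc genes) to bind Qa-1, NKG2D (Klrk1) binds stress-induced ligands, and the NKR-P1 receptors (Klrb1 genes) bind Clec2 proteins that are encoded in the same complex. Inhibiting members recruit phosphatases such as SHP-1 through a motif in their tails, whereas activating members signal through the adaptors DAP12 and DAP10. NK cells switch many of these genes on one by one, so that each cell shows only some of them, and a few members, among them Klra17 (Ly49Q) and Klra2 (Ly49B), are known from myeloid and dendritic cells.

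The study asked how IRF3, IRF5 and IRF9, transcription factors of nucleic acid sensing and interferon signalling, select enhancers in dendritic cells. Of its 8 samples, 6 were ChIP-seq samples of stimulated cells in 3 groups and were not analysed here. The other 2 were ATAC-seq samples of unstimulated CD8-positive dendritic cells, in which a transposase cuts and tags accessible DNA in isolated nuclei. They form 1 group with 2 replicates: no agent was given, the cells were kept in culture, and strain, genotype and age are not given in the sources used here. The labels name the spleen as the source and also speak of a cell line, and they do not say whether the replicates were separate cultures, so differences between them may be technical. With 1 group there is no contrast to test, and every comparison with other genes given here is a description.

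The lists held 50950 peaks in replicate 1 and 58319 in replicate 2, and 44328 shared regions lay on the autosomes and X, a shared region being the merged stretch of peaks of both replicates that overlapped by at least 1 bp. The floor of the lists was 7 summit reads in replicate 1 and 9 in replicate 2, and the background was 1.89 times as high in replicate 2. A gene without a peak was therefore without a detectable one at this depth, which does not make it closed. The label was checked against marker genes. Of 12 genes typical of cross-presenting dendritic cells, 7 had a shared region at an end (within 1 kb): Flt3, Cadm1, Wdfy4, Itgax, Xcr1, Tlr3 and Irf8. Batf3, Itgae, Zbtb46, Cd8a and Clec9a had none there. A shared region at an end was found for 2 of 12 NK cell genes without Klr symbols (Fcgr3 and Cd244a), for 3 of 12 T cell genes and for 2 of 8 B cell genes. These shares were 58.3%, 16.7%, 25.0% and 25.0%, beside 47.9% of all coding genes, so that of the dendritic cell genes was near the background. A shared region lay inside 11 of the 12 dendritic cell genes, 4 of the 12 NK cell genes, 8 of the 12 T cell genes and 2 of the 8 B cell genes. The share of all coding genes was 57.6%. The dendritic cell gene without one inside was Cd8a, which had 2 within 50 kb. The 4 NK cell genes were Fcgr3, Cd244a, Il2rb and Txk. The others of that list, Ncr1, Eomes, Gzma, Gzmb, Prf1, Tbx21, Cd7 and Nkg7, had none inside or at an end. The part of NK cell chromatin in any result was not tested.

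Accessible regions were present near most Klr genes but in few of them and at few of their ends. Of the 27 genes, 20 (74.1%) had a shared region inside or within 50 kb, beside 79.6% of all coding genes. A shared region lay inside 10 genes (37.0%), beside 57.6% of all coding genes and 66.0% of the 10265 coding genes whose length fell in the range of the Klr genes, 7249 to 48747 bp. Within 1 kb of a gene end, 6 genes (22.2%) had a shared region, beside 47.9%. In the promoter window, which runs from 250 bases before to 50 bases after a RefSeq start, 4 of the 24 genes with an entry (16.7%) had a shared region, beside 45.4% of 17274 coding genes. The shares inside, at the ends and at the promoters were thus all below those of coding genes at large.

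Taken with their surroundings, the genes were not poor in accessible DNA. The windows of 50 kb around the 27 genes merged into 6 stretches of 1.74 Mb and held 52 shared regions, or 29.9 per Mb, beside 24.2 per Mb in the same windows of all coding genes. A Klr gene was the nearest coding gene for 37 of the 52 regions. Of the 52, 17 lay inside a Klr gene or within 1 kb of its end, a count that was not set against the length of the genes. A further 7 lay inside or at an end of another coding gene, namely Luc7l2, M6pr, Clec2h, Clec2f, Clec2e, Gabarapl1 or Magohb. Fold enrichment is the authors' ratio of summit reads to local background, each with 1 read added. The median for the regions in these windows was 7.55 in replicate 1 and 7.13 in replicate 2, beside 7.22 and 7.59 for all shared regions. Their fold enrichment was thus close to that of all shared regions, and their summit reads were fewer, with medians of 14 and 19.5 beside 17 and 25.

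**Figure D1:**
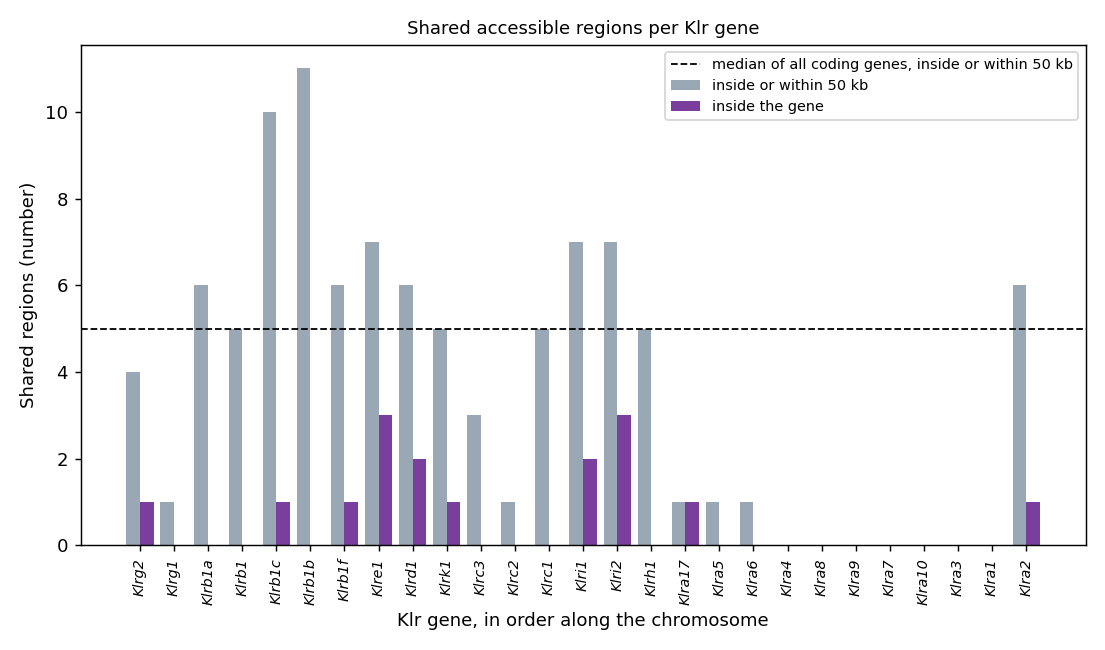
Number of shared accessible regions per Klr gene, in order along chromosome 6; grey bars count regions inside the gene or within 50 kb, purple bars those inside the gene, and the dashed line is the median of all coding genes for the grey bars (5 regions). Klrb1b has the highest grey bar with 11 regions, and the 7 genes Klra4, Klra8, Klra9, Klra7, Klra10, Klra3 and Klra1 have none.

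The 25 genes of the complex fell into stretches that differed widely in accessible regions. The 450 kb from Klrb1a to Klrb1f held 27 shared regions (59.9 per Mb), and the 225 kb from Klre1 to Klrh1 held 13 (57.8 per Mb). Part of the interval between them, the 275 kb from Cd69 to Gabarapl1, holds 11 coding genes and no Klr gene, and had 17 (61.8 per Mb). By contrast, the 556 kb from Klra17 to Klra1, with 10 Ly49 genes, held 2 (3.6 per Mb). The plot of peaks along the complex draws those of each replicate inside or within 50 kb of Klr genes, so it leaves out most of the stretch from Cd69 to Gabarapl1.

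**Figure D2:**
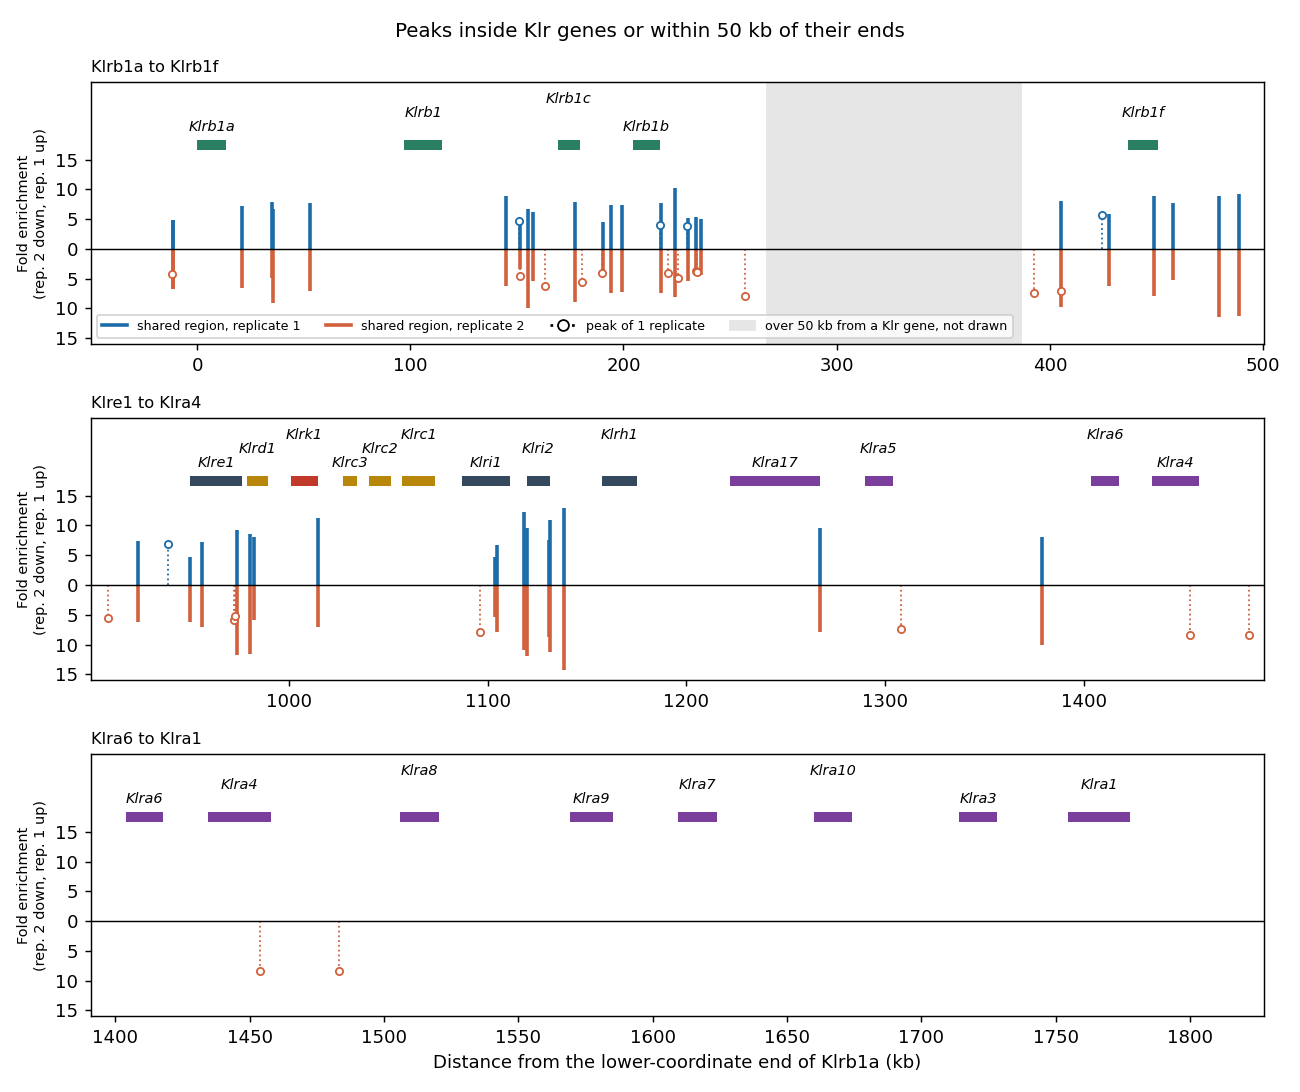
Peaks inside Klr genes or within 50 kb of their ends along 3 stretches of the complex, with distance from Klrb1a in kb on the horizontal axis and the authors' fold enrichment on the vertical axis, replicate 1 upward and replicate 2 downward; bars are genes coloured by subfamily, full lines shared regions, open circles peaks of 1 replicate, and peaks in the grey area were not drawn. From Klra6 to Klra1 there is no shared region, and the 2 peaks drawn there are of replicate 2.

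Klrk1 encodes NKG2D, the activating receptor for stress-induced ligands, and of the genes outside the Ly49 and Klrg groups with a promoter entry it alone had a shared region in that window. Klrd1 and Klri2 have no entry and were not examined there. The region (chr6:129623813-129624054) spanned the gene's end and the RefSeq start, with summits 43 bp before the start in replicate 1 and 69 bp before it in replicate 2. Its fold enrichment was 11.3 (replicate 1) and 7.02 (replicate 2), from 18 and 15 summit reads, with −log10 q of 16.9 and 9.38. Among all shared regions, its −log10 q stood at percentile 81.0 in replicate 1 and 25.3 in replicate 2. The replicates therefore differed in how strong this site was, and it was one of 2 among the 17 regions inside or at an end of a Klr gene with fewer reads in replicate 2 (11.8%, beside 5.72% of all shared regions). The bases upstream of the annotated gene, taken from RefSeq (GRCm38.p6, minus strand, chr6:129623904-129624114), are shown because this is the promoter of an activating receptor that was open in these cells. The bases between the printed stretch and the RefSeq start at 129623864 lie inside the annotated gene and the peaks of both replicates, and are not printed. Capitals mark the bases inside the peaks of both replicates, 94 of the 211 printed.
Klrk1: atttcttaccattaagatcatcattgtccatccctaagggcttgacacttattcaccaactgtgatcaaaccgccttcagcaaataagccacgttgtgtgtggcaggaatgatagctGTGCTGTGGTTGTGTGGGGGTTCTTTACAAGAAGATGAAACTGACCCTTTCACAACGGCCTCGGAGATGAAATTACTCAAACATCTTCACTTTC
The capitals hold 1 of the short words searched, TGTGGT, the core recognised by RUNX factors, which was found on either strand in 14.7% of the promoter windows of all coding genes. The Klrk1 window also held TGANTCA, the AP-1 word, outside the printed stretch.

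The CD94 and NKG2 genes next to Klrk1 differed among themselves. Klrd1, whose product CD94 is the common partner of the NKG2 chains, had shared regions inside it at chr6:129589406-129589612 and chr6:129591657-129591795. The first had fold enrichments of 8.52 (replicate 1) and 11.6 (replicate 2), from 15 and 27 reads, with −log10 q of 11.4 and 22.5. The second had 8.11 and 5.8, from 14 and 13 reads. Klrc1 (the inhibiting NKG2A), Klrc2 (the activating NKG2C) and Klrc3 (NKG2E) had no peak of either replicate inside them. Their nearest shared regions were 30014 bp, 25548 bp and 12209 bp away, and for Klrc2 and Klrc3 this was the Klrk1 promoter region itself. So the common chain had open sites within the gene, and for its 3 partners none was detectable.

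Klre1, Klri1 and Klri2 encode receptors in which KLRE1 pairs with KLRI1 or KLRI2, and they held 8 of the 16 shared regions inside Klr genes. Klre1 had 3, of which the strongest (chr6:129583117-129583337) had fold enrichments of 9.16 (replicate 1) and 11.7 (replicate 2), from 20 and 33 reads, with −log10 q of 14.5 and 26.2. Its region at the gene's lower-coordinate end (chr6:129559395-129559533) was near the floor of the lists, with 4.77 and 6.15 from 7 and 13 reads. Klri1 had 2, and the higher scoring one (chr6:129713650-129714112) had 6.72 and 7.86 from 24 and 42 reads, with −log10 q of 12.2 and 23.2. The Klri1 regions lay 3354 bp and 4178 bp past the RefSeq start in replicate 1, so the open sites of Klri1 were within the gene and not at its start.

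Klri2 was the Klr gene with the most open ends. All 3 of its regions lay within 1 kb of an end: chr6:129729181-129729348 near the lower end, with a fold enrichment of 9.53 and 11.9 in replicates 1 and 2, and chr6:129740210-129740330 and chr6:129740420-129740628 near the upper end, with 7.52 and 8.69, and 10.9 and 11.2. The region at the lower end had 20 and 36 reads and −log10 q of 15 and 28.3, and the last of them had 18 and 25 reads and 16.2 and 20.7, so each scored highest in 1 replicate. The strongest region of all 52 lay 6856 bp from Klri2 (chr6:129747340-129747635), with 13.0 in replicate 1 and 14.2 in replicate 2 from 32 and 48 reads, at percentiles 97.5 and 98.0 of the −log10 q of all shared regions. Another region 1480 bp below Klri2 (chr6:129727360-129727561) had 12.2 and 11 from 25 and 33 reads. Klri2 was thus flanked on both sides by regions with a fold enrichment above the median of all shared regions in both replicates. Klrh1, the next gene, had none inside, and its nearest was that strongest region, 18933 bp away.

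**Figure D3:**
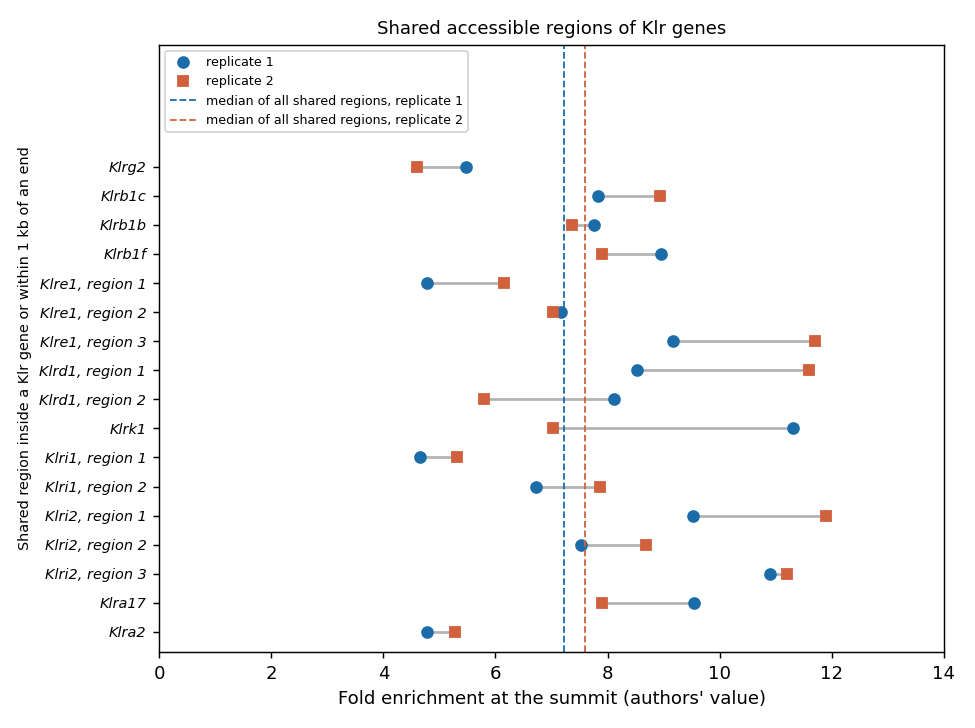
Authors' fold enrichment at the summit, on the horizontal axis, for the 17 shared regions inside a Klr gene or within 1 kb of an end, with replicate 1 as circles, replicate 2 as squares, and the medians of all shared regions as dashed lines (7.22 and 7.59). Klri2 regions 1 and 3 are among those above both medians in both replicates, and Klrg2 and Klra2 are among those below both. Klrk1 shows the widest gap, 11.3 against 7.02.

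The NKR-P1 genes had accessible regions around them, and 2 of the 5 had a shared region inside, beside 57.6% of all coding genes. Each of the 5 had between 5 and 11 shared regions inside or within 50 kb, beside a median of 5 for all coding genes. The windows of neighbouring genes overlap, so the same region can count for several of them. None of the 5 had a shared region in the promoter window. Klrb1c, which encodes the NK1.1 antigen, had 1 inside (chr6:128786544-128786648), with summits 2054 bp and 2035 bp past the start and fold enrichments of 7.83 (replicate 1) and 8.93 (replicate 2) from 13 and 22 reads (−log10 q 9.67 and 15.5). Klrb1f had 1 inside (chr6:129058138-129058299), 12280 bp and 12334 bp past the start, with 8.95 and 7.9 from 14 and 17 reads (−log10 q 11.7 and 11.5). Both sites were internal to their genes and seen at similar height in both replicates.

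Klrb1b, an inhibiting receptor for the Clec2d product, had a region 547 bp outside its end (chr6:128826862-128827161), with summits 680 bp and 691 bp upstream of the start. Its fold enrichment was 7.76 (replicate 1) and 7.37 (replicate 2), from 20 and 26 reads, with −log10 q of 12.3 and 14.6. Replicate 1 alone also had a peak over the Klrb1b end (chr6:128826305-128826406), with a fold enrichment of 4.08 from 10 reads. The upstream site was thus found in both replicates and the site at the start in 1. Klrb1a and Klrb1 had no peak inside them in either replicate, and their nearest shared regions were 7226 bp and 29662 bp away.

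Of the 11 Ly49 genes, the outermost on either side, Klra17 and Klra2, had a shared region at the start, and the 9 between them had none. Klra17 encodes Ly49Q, an inhibiting receptor known from plasmacytoid dendritic cells and other myeloid cells. Its start lay in a shared region (chr6:129876629-129876804) with the summit 72 bp upstream in both replicates and fold enrichments of 9.55 (replicate 1) and 7.9 (replicate 2), from 15 and 17 reads (−log10 q 13.0 and 11.5). In replicate 1 the peak itself lay wholly upstream of the gene. Klra2 encodes Ly49B, likewise known from myeloid cells, and is set apart from the other Ly49 genes by 812 kb from Klra1. Its start lay in a shared region (chr6:131247324-131247464) that was weak in both replicates, with 4.77 and 5.27 from 7 and 11 reads (−log10 q 3.68 and 5.38), at percentiles 2.09 and 4.93 of all shared regions. Both Ly49 genes known from myeloid cells thus had a detectable region at the start, with Klra17 the higher in both replicates.

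The other 9 Ly49 genes had no shared region inside. Klra5 (Ly49E) and Klra6 (Ly49F) had 1 each within 50 kb, at 22184 bp and 24888 bp, and that of Klra5 was the Klra17 start. Nearer to Klra5, at 3893 bp, was a peak of replicate 2 alone (chr6:129917130-129917243), with a fold enrichment of 7.46 from 16 reads. The remaining 7 had no shared region within 50 kb: Klra4 (the activating Ly49D), Klra8 (Ly49H, the activating receptor for a cytomegalovirus protein), Klra9 (Ly49I), Klra7 (Ly49G), Klra10 (Ly49J), Klra3 (Ly49C) and Klra1 (Ly49A). For 5 of these, Klra9, Klra7, Klra10, Klra3 and Klra1, neither list had any peak within 50 kb. Replicate 2 alone had a peak inside Klra4 (chr6:130062849-130062984) and another 22597 bp from Klra8, both with a fold enrichment of 8.34 from 18 reads. In the middle of the cluster, then, replicate 1 was empty and replicate 2 had 2 peaks.

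The stretch without a shared region ran from chr6:129988146 to 130486377, 498 kb with 8 of the Ly49 genes and 9 coding genes in all. Of the 44308 gaps between neighbouring shared regions of a chromosome, 960 (2.17%) were as long, and 119 held as many coding genes. In replicate 2 alone the gap was 377 kb long and held 6 of the Ly49 genes. The shared regions that bordered it had a fold enrichment of 8.1 and 10.1 on the Klra17 side and of 12.4 in both replicates on the Klra1 side, so the gap was bordered by regions above both medians of all shared regions.

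Promoter windows of 4 Ly49 genes are printed to set starts with a peak (Klra17 and Klra2) beside starts without one (Klra8 and Klra3). The bases before the RefSeq start are given for Klra17 (chr6:129876673-129876922), Klra8 (chr6:130129899-130130148) and Klra3 (chr6:130337627-130337876), and a stretch of 30 bases for Klra2 (chr6:131247410-131247439), all from RefSeq on the minus strand of GRCm38.p6. Capitals mark bases inside the peaks of both replicates.
Klra17: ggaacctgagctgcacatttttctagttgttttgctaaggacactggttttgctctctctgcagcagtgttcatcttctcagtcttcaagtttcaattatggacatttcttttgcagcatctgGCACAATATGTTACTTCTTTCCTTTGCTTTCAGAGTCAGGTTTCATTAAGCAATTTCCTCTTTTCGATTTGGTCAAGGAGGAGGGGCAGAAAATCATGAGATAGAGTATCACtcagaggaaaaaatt
Klra2: ATGCAATTTCCTCTTTTTGCTTAGATCAAG
Klra8: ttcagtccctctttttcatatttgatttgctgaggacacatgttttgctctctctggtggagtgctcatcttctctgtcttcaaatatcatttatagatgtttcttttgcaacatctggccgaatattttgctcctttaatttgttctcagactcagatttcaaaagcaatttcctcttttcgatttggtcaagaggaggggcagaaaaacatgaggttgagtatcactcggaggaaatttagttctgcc
Klra3: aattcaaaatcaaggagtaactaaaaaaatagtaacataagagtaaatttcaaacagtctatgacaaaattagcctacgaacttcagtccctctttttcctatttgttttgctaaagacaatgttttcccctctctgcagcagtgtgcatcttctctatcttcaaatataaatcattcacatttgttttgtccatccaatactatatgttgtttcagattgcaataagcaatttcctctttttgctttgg
The Klra17 and Klra8 windows were 79.0% identical and the Klra17 and Klra2 windows 74.6%. The Klra3 window was less alike, with 48.3% identity to Klra17, 45.3% to Klra2 and 47.8% to Klra8. The longest word common to these 4 windows before the start, gcaatttcctctttt of 15 bases, was looked for after the sequences were seen, and it was present in 8 of the 13 Ly49 windows, in 7 genes, and in 9 of the 21045 promoter windows of all coding genes (0.0428%) on either strand. It ended 64 bp before the Klra17 start and 61 bp before the Klra2 start, inside the peaks of both replicates. At 70 bp before the Klra8 start and 9 bp before the Klra3 start it lay in no peak. The word was chosen as common to these 4 windows, so its presence at starts with and without a peak was fixed by that choice.

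Likeness between copies bears on mapping, since a read that matches several places equally may be dropped or placed at random, and the sources used here do not say how such reads were treated. The 10 windows of the 8 Ly49 genes in the empty stretch had a median identity of 74.5% (49.7% to 86.0%) to the closest window of another Klr gene, and their longest exact stretch shared with one had a median of 37 bases (13 to 75). For the open starts the identity was 79.3% at Klra17 and 74.6% at Klra2, with shared stretches of 31 and 20 bases. Klrc2 and Klrc3, both without a peak inside, were the closest pair, with 98.3% identity and a shared stretch of 150 bases. Beside the windows of the empty stretch, the open Ly49 starts lay within the range of identity, and their shared stretches were below the median of 37 bases. Only promoter windows were compared, and their identity depends on where the starts are annotated. The part of read mapping in the empty stretch was not tested.

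**Figure D4:**
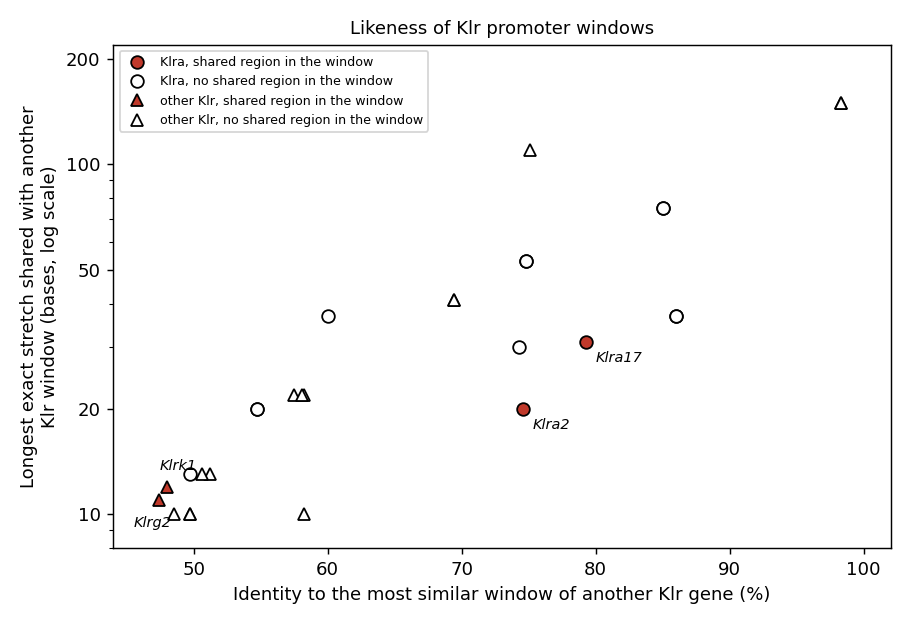
Identity of each Klr promoter window to the most similar window of another Klr gene (horizontal axis, percent) against the longest exact stretch shared with another (vertical axis, bases, log scale); each symbol is 1 of 29 windows, circles are Ly49 genes, and filled symbols hold a shared region. Klra17 (79.3%, 31 bases) and Klra2 (74.6%, 20 bases) lie among the open circles, and Klrk1 and Klrg2 lie at the lower left with little likeness to other Klr windows.

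As a group, the 29 promoter windows of the 24 Klr genes were low in G and C. Their median GC content was 40.0%, beside 56.7% for all coding genes, and their median number of CpG sites was 2, beside 13. The 8862 windows of all coding genes with a shared region had medians of 62% and 23, and those without had 51.7% and 5. TATAAA, the TATA box core, was in 11 of the 29 Klr windows, 7 of whose 10 genes were Ly49 genes, and in 12.7% of all windows. GGGCGG, a GC box, was in 4 Klr windows and in 46.7% of all. GGAAGT (ETS factors) was in 5, all of NKR-P1 genes, beside 25.0% of all. TGTGGT (RUNX factors) was in 9 beside 14.7%, and TGANTCA (AP-1) in 5 beside 7.04%. The interferon-stimulated response element was matched in none of the Klr windows, beside 3.38% of all. These are matches of letters on both strands, and those of different words may overlap. Overlapping windows of the same gene, as at Klrb1b and Klrc2, were counted separately. Klrc2 and Klrc3 windows, up to 98.3% identical, held both the RUNX and the AP-1 word, so some matches repeat nearly the same bases.

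Outside the complex, Klrg2 had a shared region in its promoter window (chr6:38637235-38637318), with summits 54 bp and 40 bp upstream of the start and fold enrichments of 5.48 (replicate 1) and 4.6 (replicate 2) from 15 and 16 reads (−log10 q 6.78 and 5.78). Its window had the highest GC content of the 29, 59.3%, with 12 CpG sites. Klrg1, a cadherin-binding inhibiting receptor, had no peak inside it, and the nearest shared region was that of M6pr, 25687 bp away.

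The replicates matched near Klr genes about as in the whole lists. In the windows, 52 of the 57 peaks of replicate 1 were shared (91.2%, exact Clopper-Pearson 95% interval 80.7% to 97.1%, whole list 90.0%), and so were 52 of the 76 peaks of replicate 2 (68.4%, 56.7% to 78.6%, whole list 76.5%). The whole-list shares lay within both intervals. Peaks of 1 replicate were 5 in replicate 1 and 24 in replicate 2, with median summit reads of 11 and 17. Besides those at Klrb1b and Klra4, the ones inside Klr genes were all of replicate 2. They were chr6:129581473-129581550 and chr6:129582057-129582140 in Klre1, with a fold enrichment of 5.84 and 5.21, chr6:129705130-129705262 in Klri1 with 7.9, and chr6:131244727-131244808 in Klra2 with 5.27.

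Genes whose products work with these receptors were counted in the same way. Of 15 adaptors and proximal signalling genes, 9 had an open end, meaning a shared region within 1 kb, and all 15 had one inside or within 50 kb, where 79.6% of all coding genes had one. Ranked by the lower of both replicates, Fyn, a kinase of the Src family, had the strongest (fold enrichment 10.4 in replicate 1 and 10.6 in replicate 2), followed by Pik3r1, a subunit of phosphoinositide 3-kinase (9.08 and 8.25), and Inpp5d, the phosphatase SHIP-1 (7.13 and 7.07). Tyrobp, which encodes DAP12, had 6.84 and 6.65, and Hcst, which encodes DAP10, the partner of NKG2D, had 4.57 and 3.88. DAP12 and DAP10 thus had an open end in both replicates, whereas Fcer1g, the adaptor of the NK1.1 receptor, and Cd247 had no shared region at an end.

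Of 16 ligand genes, 7 had an open end and 14 a shared region inside or within 50 kb (79.6% of all coding genes), the exceptions being H60c and Cdh2. Ranked in the same way, the highest were Clec2d, the ligand of the Klrb1b product (15.3 and 13.0), the classical MHC class I gene H2-K1 (9.24 and 10.8) and H2-T23, which encodes Qa-1, the ligand of CD94 with NKG2A (9.03 and 10.4). Another 15 lectin receptor genes were listed, 6 of which are also in the ligand list. All lie in the complex except Clec2l, which lies near Klrg2. Of the 15, 6 had an open end and all had a region inside or within 50 kb (79.6% of all coding genes). Clec2d, Clec12a (11 and 8.4) and Clec12b (7.76 and 9.22) were highest. The 27 Klr genes had an open end in 22.2%, the 15 lectin receptor genes in 40.0%, the ligands in 43.8% and the adaptors in 60%. The share of all coding genes was 47.9%, and no test of these differences was made.

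The counts depended on how weak a peak was admitted. With the better-scoring 50% of each list, 5 Klr genes kept a shared region inside, and 2, Klrb1b and Klri2, kept one within 1 kb of an end, so the regions at the Klrk1, Klra17 and Klra2 ends were not among them. With an end window of 2 kb, 10 genes had one. The stretch from Klra6 to Klra1 had 0 regions with the better-scoring 50%, with −log10 q of 5 or more, with reciprocal overlap of 50% and with replicate 1 alone, and 2 with replicate 2 alone.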

How the data were processed

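ATAC-seq peaks of 2 samples of unstimulated CD8-positive dendritic cells were used. ChIP-seq was not analysed here. Tools named in the submitters' processing notes, with no roles, are MACS2, HOMER 4.9.1, BWA 0.7.17, Trimmomatic and Picard 2.8.1, and the build is mm10. Read shifting for the transposase, duplicate removal and the treatment of reads matching several places are not given in the sources used here, and each can change which weak peaks are listed.

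Peaks were deposited per sample. The deposited score is a whole number per peak that follows its −log10 q. The deposited fold enrichment is the authors' ratio of summit reads to local background, and the deposited −log10 p and −log10 q are of the same summit. The deposited summit offset gave the summit's position. These values describe or rank peaks within a list. Summit reads were solved from the fold and the p, which returned the −log10 p to within 0.002 at 100.0% of summits of each replicate.

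Computed here, with Python 3.11.15, numpy 2.4.6, pandas 2.3.3, scipy 1.17.1, Biopython 1.88 and matplotlib 3.10.9: summits of 1 peak were joined, and overlap with genes was counted from the ends given by RefSeq (GRCm38.p6). No exon, intron or untranslated region was assigned. Promoter windows of 300 bases came from the RefSeq table. Percent identity is from global pairwise alignment. The overlap script was tested on simulated data. Every Klr gene was named, with full values for its highest scoring region inside or at an end, and of each partner list the 3 genes whose lower fold of both replicates at an end was highest, with listed genes lacking regions where few; other genes named were chosen after their values were seen. The Klr genes and the lists were chosen with earlier results of these data known. Alternatives were overlap, score threshold, window sizes, single replicates, the union, and leaving out Klrg1 and Klrg2. Intervals are exact Clopper-Pearson and cover counting error only.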

Additional observations from a re-analysis of the deposited data

How the results depend on the processing

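Of 63 alternative values, 53 stayed within 1.5 times the reported count or, for the shares of shared peaks, within their interval. With the better-scoring 50% of each list, 5 Klr genes had a shared region inside (43.9% of all coding genes) and 2 had one within 1 kb of an end (34.9%), the distinct regions fell to 21, those nearest to a Klr gene to 15, the density to 12.1 per Mb and the shared percentage of replicate 1 peaks to 75.0. The union of both replicates gave 81 regions, 56 nearest to a Klr gene and 46.5 per Mb. An end window of 2 kb gave 10 genes (52.4% of all coding genes). Leaving out a replicate gave 20 to 22 genes with a region inside or within 50 kb, 10 to 11 with one inside and 6 with one at an end. No paired analysis was possible because both ATAC-seq samples belong to 1 group and no test was made. Summits under 7 reads in replicate 1 or 9 in replicate 2 are not in the lists, which limits what can be said of weak sites. The cause of these changes was not tested.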

Other observations

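The 4 Klr pseudogenes on the main sequence of chromosome 6 were not among the 27 genes. Klrb1-ps1 (chr6:129116518-129129446) had a shared region 4 bp from its end (chr6:129116367-129116514), with fold enrichments of 13.1 (replicate 1) and 9.22 (replicate 2) from 21 and 20 summit reads. Klra11-ps (chr6:130082606-130092831), in the Ly49 cluster, had 1 peak of replicate 2 and no shared region. Klra14-ps (chr6:130149106-130160748) and Klra13-ps (chr6:130291161-130306432) had no peak of either replicate inside them. The peak that lies 22597 bp from Klra8 is the one in Klra11-ps.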
